A study of Drosophila melanogaster with 4 samples.

Results

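The peaks described here are the 472 Distal-less (Dll) binding sites called outside the assembled chromosome arms, among 16117 peaks in all. They were picked by scaffold name alone, as every peak on Uextra, U, 2LHet, 2RHet, 3LHet, 3RHet, XHet or YHet, and they make up 2.93% of the list (exact 95% interval 2.67 to 3.20%). The study assayed Dll by chromatin immunoprecipitation and sequencing (ChIP-seq) in white prepupae of Drosophila melanogaster, with 2 libraries of Dll ChIP DNA and 2 libraries of input DNA. All 4 libraries share the strain, Y cn bw sp, and its listed alleles, which are lab[R4.2], oc[R3.2], CG33964[R4.2], bw[1], cn[1], sp[1], y[1], Rh6[1], LysC[1], Gr22d[1], Gr22b[1], GstD5[1] and MstProx[1]. The ChIP libraries used an affinity-purified rabbit polyclonal serum against Dll, and the input libraries had no antibody. The deposited outcome is 1 peak list for the whole series, with a start, an end and the authors' own score for each peak. It has no value for a single library, so depth is unknown, no spread between replicates exists and no difference below could be tested over samples. The intervals given allow for counting error alone, and they count each peak as independent of its neighbours.

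Dll is a homeodomain transcription factor that directs the formation of the distal parts of the fly's limbs. Heterochromatin is the compact, repeat-rich and gene-poor part of the genome, found around the centromeres and over most of the Y chromosome. In release 5 of the fly genome, the scaffolds ending in Het hold heterochromatic sequence assigned to a chromosome but not joined to its arm. U and Uextra hold pieces that could not be assigned to any chromosome, set end to end, and Uextra holds the smaller and less well assembled of them. The order of pieces in U and Uextra is therefore not an order along a chromosome. How reads with several possible places in the genome were handled is not given in the sources used here, and how much of these scaffolds is repeated was not tested.

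Uextra carried most of the peaks. It held 347 of the 472, or 73.5%, U held 51 and the 6 scaffolds of mapped heterochromatin held 74. Among these 6, 2RHet held 31 peaks, 3RHet 20, 3LHet 14, 2LHet 6, YHet 2 and XHet 1. The peaks were sparse. Over the span from first to last peak, Uextra had 11.99 peaks per Mb, U 5.13 and mapped heterochromatin 9.22, against 138.3 per Mb on the pooled arms 2L, 3L and 3R. Peaks covered 0.453% of the span of Uextra, 0.272% of that of U and 0.521% of that of mapped heterochromatin, against 7.95% on 2L, 3L and 3R. Chromosome 4, a small chromosome that is largely heterochromatic, had 25.4 peaks per Mb.

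The authors' score ranks peaks within the list, but its scale is not named, so a difference in score is not a fold of binding. Scores of the 472 peaks ran from 7.34 to 270.67 with a median of 27.0 (95% interval 24.7 to 30.2), against 16.7 (16.4 to 17.0) for the 10402 peaks of 2L, 3L and 3R. The median was higher on the unplaced scaffolds than on mapped heterochromatin. It was 28.3 on Uextra (25.4 to 32.8) and 31.7 on U (22.3 to 43.5), while mapped heterochromatin had 19.7 (15.8 to 24.7), an interval that takes in 16.7. Within mapped heterochromatin the medians were 34.8 on 2LHet, 22.0 on 2RHet, 19.1 on 3RHet and 14.1 on 3LHet. The scores were high in the middle of the range rather than at the top. Of the 472 peaks, 168, or 35.6%, were among the highest 25% of the whole list (score of 35.28 or more), which 25% of all peaks reach by construction. Among the highest 10%, which 10% of all peaks reach, were 35, or 7.42%, near the 9.35% of 2L, 3L and 3R peaks. The highest 1%, which starts at 302.7, held 0 of 472, against 0.923% of 2L, 3L and 3R peaks. The list's median score of 17.27 was reached by 345 of the 472 peaks (73.1%), against 48.6% of 2L, 3L and 3R peaks.

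**Figure D1:**
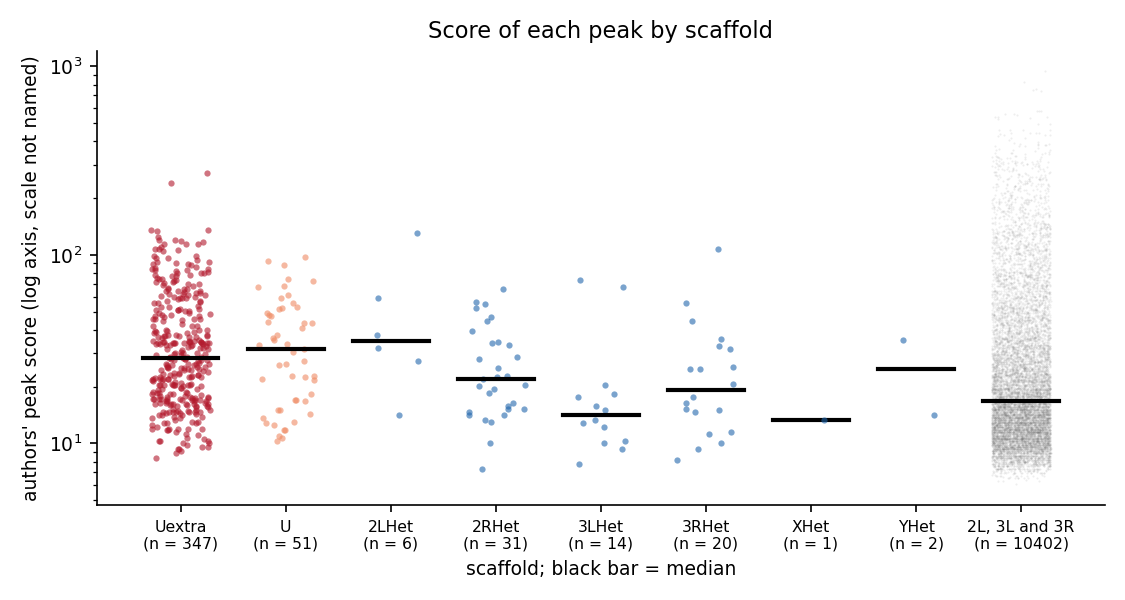
Each point is 1 peak, placed by scaffold on the x axis and by the authors' score on a log y axis, and black bars are medians. Uextra and U have medians of 28.3 and 31.7, against 16.7 for 2L, 3L and 3R, whose scores extend far above all others, to 939.07.

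Of the 10 highest peaks off the arms, 9 were on Uextra and the other was on 2LHet. Uextra held 73.5% of all peaks off the arms, so a count of 9 of 10 says little about Uextra by itself. The highest of all spanned 28219795 to 28220381 on Uextra, with a score of 270.67 over 587 bp. The next spanned 23138837 to 23139467 on Uextra, with a score of 239.73 over 631 bp. After these 2 the scores dropped to 136.02 for a narrow peak of 347 bp at 28549516 to 28549862, then to 136.01 at 27872317 to 27872878 and 134.34 at 25110931 to 25111422. Of the 10, 6 lay in the last 3 of 10 equal stretches of Uextra, namely these 5 and the peak at 28213644 to 28214226 (score 119.16), which lies near the highest one. The other 3 on Uextra lay in the first stretch, from 893811 to 894852 (score 123.95), from 531938 to 532627 (120.22) and from 1484334 to 1485009 (117.75).

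On the other scaffolds single peaks stood out. The peak at 187520 to 188360 on 2LHet had a score of 130.88 over 841 bp. It is 1 of 6 peaks there, and the other five scored 37.61, 58.65, 27.21, 14.1 and 32.06. The highest on 3RHet lay at 2473997 to 2474600 (score 106.85), the last peak of that scaffold. U had its highest at 6904613 to 6905431 (97.47), 3LHet at 878051 to 878636 (73.23) and 2RHet at 874689 to 875176 (65.55). The sole peak of XHet lay at 61903 to 62134 with a score of 13.29. YHet had a peak of score 14.1 at 72635 to 72979, and another of score 35.2 at 132683 to 132969. Each of the 6 peaks of 2LHet, the 2 of YHet and the 1 of XHet was above the median of 2L, 3L and 3R peaks of its width class, a measure explained below. For the first peak of YHet the margin was small, 14.1 against 13.8, and it was not above the median of 14.35 of peaks within 5% of its width.

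Uextra peaks were narrower than those of the arms, while the interval of mapped heterochromatin took in the arm median. The median width was 357 bp for all 472 (95% interval 342 to 372 bp), against 430 bp (423 to 436 bp) on 2L, 3L and 3R. It was 347 bp on Uextra (332 to 365 bp), 372 bp on U (336 to 472 bp) and 447 bp on mapped heterochromatin (357 to 489 bp). On 2RHet it was 483 bp and on 3LHet 282 bp. Peaks over 1000 bp made up 1.15% of Uextra (4 peaks), 9.80% of U (5 peaks) and 10.8% of mapped heterochromatin (8 peaks), against 11.4% of 2L, 3L and 3R. The widest peak of Uextra had 1185 bp, while 2L, 3L and 3R reached 8278 bp. The narrowest peaks, on these scaffolds as in the whole list, had 201 bp.

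Of the 10 widest peaks, 0 were among the 10 highest, but 2 sets of 10 among 472 would seldom overlap, so this count says little. Across all 472 peaks score and width had a Spearman correlation of 0.567. The widest of all, at 5630751 to 5633151 on U, had 2401 bp and a score of 92.32. Of the 10, 5 were on 2RHet, namely those at 686449 to 688523 (2075 bp, score 44.55), 1320235 to 1322133 (1899 bp, 28.67), 1317523 to 1319326 (1804 bp, 33.22), 2930983 to 2932432 (1450 bp, 22.01) and 1634144 to 1635592 (1449 bp, 34.01). U had a second one, of 1914 bp, from 108654 to 110567 (score 40.95), and 3RHet had one of 1287 bp from 1873617 to 1874903 (44.39). The last of the 10, both on Uextra, had 1185 bp at 430393 to 431577 (47.86) and 1148 bp at 197437 to 198584 (33.43). Wide peaks of 2L, 3L and 3R scored higher. Those of 1067 bp or more had a median of 78.5, and 9 of the 10 wide peaks named here were below it, the exception being the one of 2401 bp. That peak was also below the median of 106.85 of 2L, 3L and 3R peaks within 5% of its own width.

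Because score goes with width, each peak was set beside the 2L, 3L and 3R peaks of similar width. The widths of those 10402 peaks were divided into 10 classes of about equal number, and a peak was counted when its score was above the class median. Of the 472 peaks off the arms, 394, or 83.5%, were above (exact 95% interval 79.8 to 86.7%), against 49.7% of the 2L, 3L and 3R peaks themselves. The share was 89.0% on Uextra (309 of 347, interval 85.3 to 92.1%), 78.4% on U (40 of 51, 64.7 to 88.7%) and 60.8% on mapped heterochromatin (45 of 74, 48.8 to 72.0%). The interval of mapped heterochromatin takes in 49.7%, but its share pools unlike widths. Of its peaks of up to 756 bp 43 of 59 were above, and of the wider ones 2 of 15. On single scaffolds the counts were 18 of 31 on 2RHet, 11 of 20 on 3RHet and 7 of 14 on 3LHet, all near the background of 49.7%, and 6 of 6 on 2LHet. Chromosome 4, measured the same way, had 19 of 30 above, or 63.3% (43.9 to 80.1%), an interval that also takes in 49.7%. X had 1095 of 1853 above, or 59.1% (56.8 to 61.3%), so a share near that of mapped heterochromatin was not particular to heterochromatin.

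Many Uextra peaks were at the upper end of their class. On Uextra 196 of 347, or 56.5%, had a score in the highest 10% of their width class, against 10% of the 2L, 3L and 3R peaks. On U it was 17 of 51, or 33.3%, and on mapped heterochromatin 10 of 74, or 13.5%. The highest 1% of the classes held 39 peaks of Uextra, or 11.2%, and 4 of U, or 7.84%, against 0.981% of 2L, 3L and 3R peaks. Mapped heterochromatin had 0 of 74 there, which is near that background. The other Uextra peaks were spread below, with 113 between the median and the highest 10%, 37 between the lowest 10% and the median, and 1 in the lowest 10%. By width, the median score of Uextra peaks was 15.8 in the narrowest class and 53.4 at 367 to 430 bp, against 10.2 and 15.5 on 2L, 3L and 3R. In wider classes it lay between 40.6 and 48.3 on Uextra, while on 2L, 3L and 3R it went on climbing, to 78.5 in the widest. Score and width had a Spearman correlation across peaks of 0.626 on Uextra (n = 347), 0.631 on U (n = 51) and 0.550 on mapped heterochromatin (n = 74), against 0.717 on 2L, 3L and 3R (n = 10402). These peaks come from the same libraries and are not replicates.

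**Figure D2:**
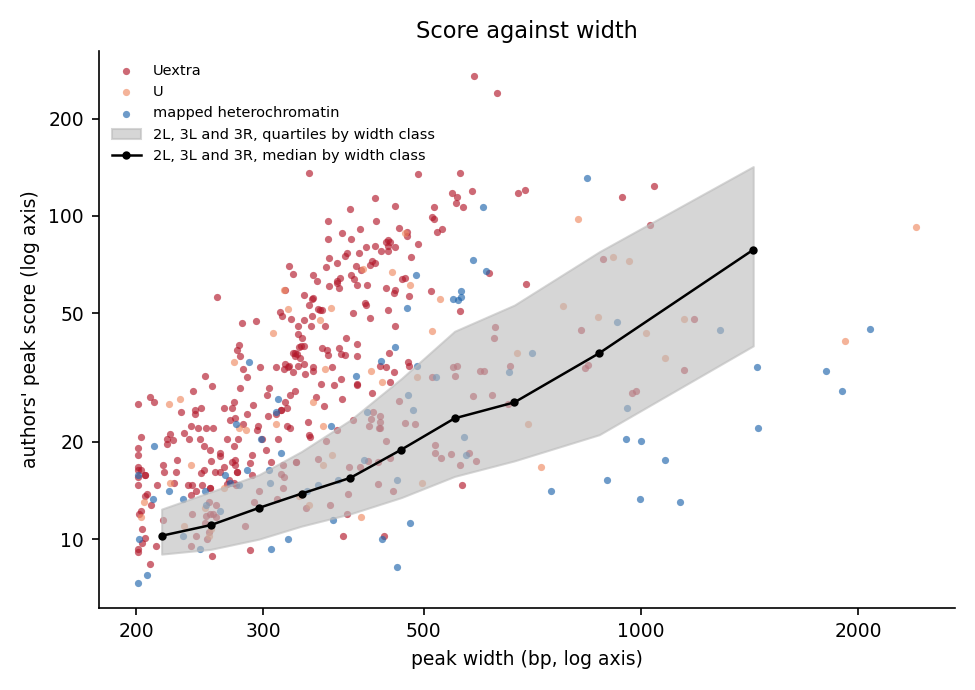
Peak width (bp) is on a log x axis and the authors' score on a log y axis, with 1 point for each of the 472 peaks. The black line and grey band are the median and quartiles of 2L, 3L and 3R peaks in 10 width classes, and most Uextra peaks lie above the line, while 13 of the 14 peaks of 1067 bp or more lie below the median of their class.

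The share varied with width. It was highest in peaks of 273 to 318 bp, where 59 of 62 were above (95.2%), and of 319 to 366 bp, where 67 of 71 were above (94.4%). In peaks of 367 to 430 bp, 66 of 73 were above, with a median score of 41.9 against 15.5 for 2L, 3L and 3R peaks of that class. In the narrowest class, 201 to 236 bp, 44 of 54 were above, with medians of 14.9 and 10.2. From 757 to 1066 bp, 13 of 22 were above. From 1067 bp on the relation turned, with 1 of 14 above (7.14%, exact interval 0.181 to 33.9%) and a median score of 35.2 against 78.5. When each of these 14 was set beside 2L, 3L and 3R peaks within 5% of its own width, 0 of 14 were above. Of the 14, 8 were on mapped heterochromatin, 4 on U and 2 on Uextra, so wide and narrow peaks also differ in scaffold. Within mapped heterochromatin alone, 43 of 59 peaks of up to 756 bp were above (72.9%), against 2 of 15 wider ones (13.3%). On Uextra the counts were 304 of 336 (90.5%) and 5 of 11, and on U 33 of 41 and 7 of 10.

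**Figure D3:**
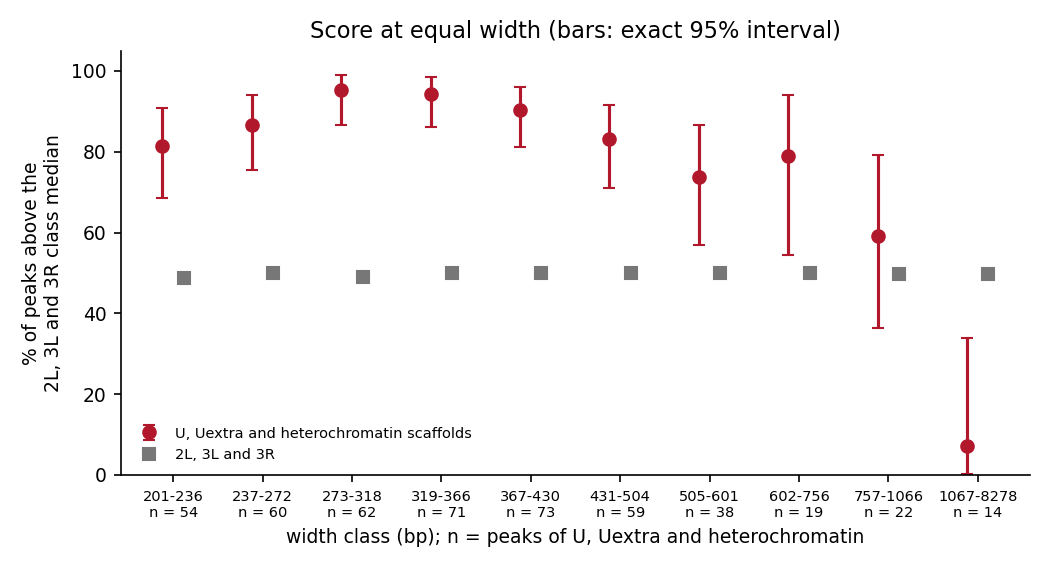
The y axis gives the percent of peaks above the median score of 2L, 3L and 3R peaks of the same width class, and the x axis the 10 classes in bp. Red circles with exact 95% intervals are the peaks of U, Uextra and heterochromatin, at 81.5% in the narrowest class, 95.2% in the third and 7.14% in the widest, and grey squares are 2L, 3L and 3R, near 50% by construction.

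Short gaps between peaks, common on the arms, were rare here. Of the 464 gaps between neighbouring peaks, 21 were 1000 bp or shorter, or 4.53% (exact interval 2.82 to 6.84%), against 33.1% on 2L, 3L and 3R. The shares were 3.18% on Uextra (11 of 346 gaps), 6.00% on U (3 of 50) and 10.3% on mapped heterochromatin (7 of 68). The median gap was 51.6 kb on Uextra, 114.0 kb on U and 60.2 kb on mapped heterochromatin, against 2.19 kb on 2L, 3L and 3R. The longest gap, 887.4 kb, was on U, where 2L, 3L and 3R had none over 464.4 kb. Within 10 kb another peak was found for 137 of the 472 peaks (29.0%), against 94.8% of 2L, 3L and 3R peaks. Fewer peaks per Mb make gaps longer by themselves, so these shares describe density as well as clustering. Whether the peaks were less clustered than those of the arms for their density was not tested. On U and Uextra a gap can also run across the join of separate pieces, whose positions the list does not give.

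When peaks up to 1000 bp apart were joined, the 472 peaks gave 451 regions, of which 430 were single peaks and 21 were pairs. No region held 3 or more peaks, whereas on 2L, 3L and 3R 27.0% of peaks lay in such regions and the fullest held 12. The pairs were on 5 of the 8 scaffolds, with 11 on Uextra, 3 each on U and 2RHet and 2 each on 3LHet and 3RHet. The highest pair of Uextra, at 562076 to 562470 and 563367 to 563699, joined a peak of score 105.07 to one of 17.27. On U the highest pair, at 6291021 to 6291356 and 6292160 to 6293120, joined scores of 13.56 and 72.72. On 2RHet it lay at 1634144 to 1635592 and 1636368 to 1637293, with scores of 34.01 and 47.03. On 3LHet the peaks at 1450450 to 1451021 and 1451073 to 1451274 scored 18.18 and 10.0, and on 3RHet those at 1868523 to 1868935 and 1869025 to 1869593 scored 17.57 and 20.7.

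**Figure D4:**
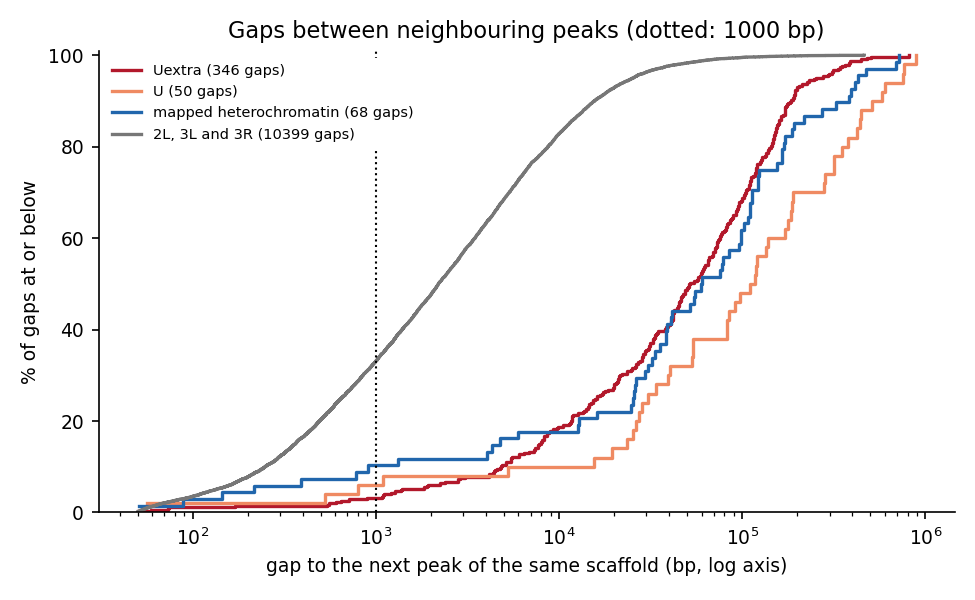
The x axis gives the gap from a peak to the next one on its scaffold in bp (log axis) and the y axis the percent of gaps at or below it, with the dotted line at 1000 bp. At that line Uextra stands at 3.18%, U at 6.00% and mapped heterochromatin at 10.3%, against 33.1% for 2L, 3L and 3R.

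Paired and single peaks had different shares above the class median, which were not tested against each other. Of the 42 peaks in pairs, 21 were above their class median, or 50.0%, and their median score was 19.7. Of the 430 single peaks, 373 were above, or 86.7%, with a median score of 27.6. The 2 sets differ in scaffold and width, as 14 of the paired and 60 of the single peaks were on mapped heterochromatin and their median widths were 410.5 and 352 bp. On Uextra 16 of 22 paired and 293 of 325 single peaks were above, on U 2 of 6 and 38 of 45, and on mapped heterochromatin 3 of 14 and 42 of 60. On 2L, 3L and 3R the shares were 49.7% with and 49.8% without a neighbour within 1000 bp. Peaks off the arms with no other within 10 kb were also compared with such peaks of 2L, 3L and 3R. This sets the same least distance for both, but distances beyond 10 kb were not matched. Among peaks with no other within 10 kb, 283 of 335 off the arms, or 84.5%, were above the class medians of the 540 such peaks of 2L, 3L and 3R. This share was 88.4% on Uextra, 76.7% on U and 72.5% on mapped heterochromatin.

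Along Uextra the peaks were unevenly placed. When its peak span was divided into 10 stretches of 2.89 Mb, the first held 64 peaks and the last 56, against 13 to 42 in the stretches between. Of the 11 short gaps, 8 were in the first stretch. In windows of 1 Mb the number was 11.1 ± 6.24 (SD, n = 28 windows), from 3 to 33, with 33 in the first. The peaks of that first 1 Mb had a median width of 522 bp, and 22 of 33 were above their class median (66.7%). This compares with 89.0% of Uextra peaks as a whole and 49.7% of 2L, 3L and 3R peaks.

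Score at equal width also changed along Uextra. In stretches 1 to 7 the median score was 23.3 (95% interval 21.7 to 26.2, n = 260 peaks), and in stretches 8 to 10 it was 55.5 (46.6 to 64.1, n = 87), with median widths of 338 and 360 bp. Stretch 8, with 13 peaks, had a median score of 33.6, close to the 30.1 of stretch 3, but at unlike median widths of 281 and 361.5 bp. Stretches 9 and 10 had 54.8 and 56.2, and stretch 10 holds 56 of the 87 peaks. At equal width, 13 of 13 peaks of stretch 8 were above their class median and 9 were in the highest 10% of their class. In stretch 3 these counts were 37 and 23 of 40. In stretch 10 all 56 peaks were above their class median, and 53 of them were in the highest 10% of their class. For stretches 8 to 10 together these counts were 85 of 87 and 77 of 87 (88.5%), and for stretches 1 to 7 they were 224 of 260 (86.2%) and 119 of 260 (45.8%), against 49.7% and 10% of 2L, 3L and 3R peaks. These stretches were chosen after the values were seen. The order of pieces in Uextra was not examined, and its part in this pattern was not tested.

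**Figure D5:**
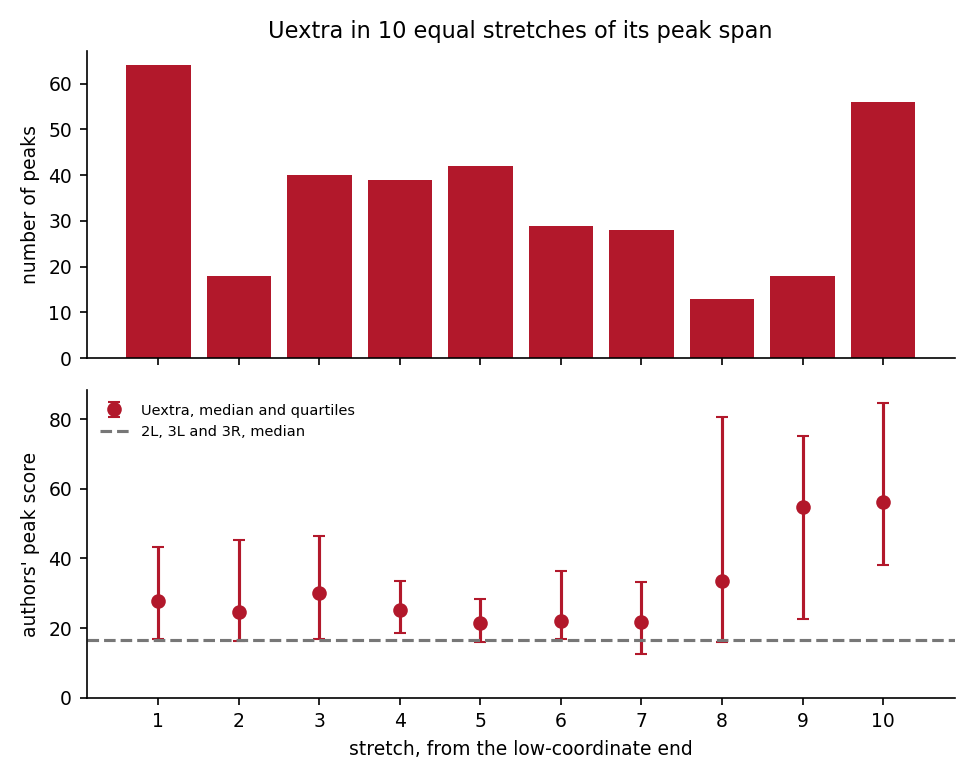
The x axis gives 10 equal stretches of the peak span of Uextra, the upper y axis the number of peaks and the lower y axis the authors' score, with medians as circles and quartiles as bars. The first and last stretches hold 64 and 56 peaks. The medians of all 10 stretches, from 21.4 to 56.2, stand above the dashed median of 16.7 for 2L, 3L and 3R. Those of the last 2 stretches, 54.8 and 56.2, are the highest.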

How the data were processed

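The tools named in the submitters' processing notes are MACS2, BWA and CASAVA, the last in versions 1.7.0.2 and 1.7.0.3, and the build is BDGP 5. Per the file headers, the deposited list is GFF version 3 on FlyBase release 5, and its score column was written by the authors under the name MACS, without its scale. Not given in the sources used here are the threshold, the filters, the treatment of reads with several alignments and whether replicates were pooled. Coordinates are 1-based, on release 5. Width is end minus start plus 1. Python 3.11.15, pandas 2.3.3, numpy 2.4.6 and scipy 1.17.1 were used, and the functions were tested on simulated lists. Shares have exact Clopper-Pearson 95% intervals and medians exact order-statistic 95% intervals. No test was run, as the list holds no values per library and peaks are not replicates. Peaks named are the 10 highest, the 10 widest, all on scaffolds with 5 or fewer, the highest of each other scaffold and the fullest joined region of each, by score where tied; the other peaks of 2LHet were added. The peaks and measures were chosen with earlier results of these data known. No gene is named and no sequence shown, as no genome was used here and the only gene table is for release 6.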

Additional observations from a re-analysis of the deposited data

How the results depend on the processing

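Of 34 alternative values for 5 results, 13 stayed within the 95% interval of the reported value, 19 moved outside it and 2 turned direction. The share of the list, 2.93%, became 4.27% and 4.17% in the highest 50% and 25% by score and 4.15% after joining within 1000 bp. Without Uextra the median score was 22.7, the median width 413 bp, the share above the class median 68.0% and the share of short gaps 8.47%. For mapped heterochromatin alone these were 19.7, 447 bp, 60.8% and 10.3%, so the width turned from below to above the 430 bp of 2L, 3L and 3R. Without stretches 8 to 10 of Uextra the median score was 23.0. In the highest 50% by score the medians were 34.8 and 395 bp and the shares 70.7% and 2.37%. Peaks of 2L, 3L and 3R cut at the same score had medians of 34.7 and 626 bp and 24.4% short gaps. The median scores were thus alike in that subset. It is chosen by the score itself, so its median score cannot be set against that of uncut lists. Against X, 76.7% were above. Without peaks that have a neighbour within 1000 bp, on the arms too, 87.4% were above the class medians of the lone 2L, 3L and 3R peaks (86.7% against the medians of all of them). In the 2 widest classes alone 38.9% (14 of 36) were above (interval 23.1 to 56.5%), on the other side of 50% but with an interval that takes in the 49.7% of 2L, 3L and 3R; the class of 757 to 1066 bp alone had 59.1% above. Short gaps were 2.37% up to 500 bp and 10.99% up to 5000 bp, against 20.3% and 68.5% on 2L, 3L and 3R. The alternatives without stretches 8 to 10, with the widest classes and with no neighbour within 10 kb were chosen after seeing the data. No paired analysis was possible because the list has no values per library. For the same reason no replicate could be left out.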

Other observations

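In 10 stretches of 0.994 Mb, U held 2 to 8 peaks each, and the first stretch held the most, with a median width of 675.5 bp and 2 of its 3 short gaps. Those lay in a run of peaks from 106977 to 113058, with scores of 47.93, 40.95, 36.4 and 14.38. The highest median score, 65.9, was in stretch 7 (6 peaks). In stretches 9 and 10, with 6 peaks each, 4 and 5 peaks were in the highest 10% of their width class, against 0 to 2 in each of the others. The share was 33.3% on U as a whole (17 of 51) and 10% on 2L, 3L and 3R. These stretches hold few peaks and were singled out after the values were seen, and no difference between them was tested.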
